A study of Mus musculus with 8 samples.

Results

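The S100 genes encode small calcium binding proteins with a pair of EF-hand motifs, and 10 of them were followed in Apc-mutant intestinal organoids of the mouse: S100a1, S100a4, S100a6, S100a8, S100a9, S100a10, S100a11, S100a13, S100a14 and S100g. The members were given as a list of names and not chosen by a measured value here, although earlier results of these data were known. All 10 had a named probe, out of 19057 genes represented on the array, and each was read from its probe with the highest mean over the 8 arrays. The organoids came from C57Bl mice of 2 to 3 months with the genotype Lgr5-EGFP-IRES-CreER; Apc flox/flox. In both groups Cre, driven from the stem cell gene Lgr5, was activated with tamoxifen for 2 days, and R-Spondin1, a Wnt agonist that Apc-deficient cells can do without, was then withheld for 5 days (the day 7 group) or 18 days (the day 20 group). There were 4 samples per day, and no culture with intact Apc was among them, so time since deletion, time without R-Spondin1 and time in culture cannot be told apart. Whether samples of a day were separate cultures or animals is not in the labels; p-values here rest on sample-to-sample spread alone, and that spread may be technical.

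Most S100 proteins work as dimers in which calcium binding opens a face that docks on target proteins, and several members also act outside the cell. S100a8 and S100a9 together form calprotectin, a metal-sequestering antimicrobial complex of neutrophils and inflamed epithelia that signals through the receptors Tlr4 and Ager. S100a10, S100a11 and S100a6 bind annexins, proteins that attach to membranes in the presence of calcium. S100g differs in acting as a single-chain cytosolic calcium buffer in absorptive enterocytes, and is controlled by vitamin D.

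In the RefSeq gene order of assembly GRCm38.p6, all members but S100g lay on chromosome 3, and S100g lay on chromosome X. S100a7a, S100a8 and S100a9 followed one another directly, and S100a11 was next to S100a10. The 250 bases before the annotated starts of these 3 neighbours are shown because S100a8 and S100a7a had the 2 largest day 20 minus day 7 differences of the family. RefSeq promoter entries of build GRCm38.p6 were found for 8 of the 10 members, and capitals mark matches to the motifs searched.
S100a8, chr3:90668821-90669070, + strand: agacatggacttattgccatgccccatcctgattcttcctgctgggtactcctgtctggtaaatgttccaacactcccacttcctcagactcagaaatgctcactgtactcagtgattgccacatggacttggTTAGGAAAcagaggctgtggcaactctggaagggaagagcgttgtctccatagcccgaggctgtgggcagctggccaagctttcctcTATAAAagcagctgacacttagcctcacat
S100a9, chr3:90695722-90695971, - strand: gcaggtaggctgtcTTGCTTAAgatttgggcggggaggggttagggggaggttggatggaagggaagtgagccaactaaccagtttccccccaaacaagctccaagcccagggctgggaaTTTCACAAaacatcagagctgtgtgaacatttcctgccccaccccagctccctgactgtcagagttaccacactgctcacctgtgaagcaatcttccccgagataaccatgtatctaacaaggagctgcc
S100a7a, chr3:90654052-90654301, + strand: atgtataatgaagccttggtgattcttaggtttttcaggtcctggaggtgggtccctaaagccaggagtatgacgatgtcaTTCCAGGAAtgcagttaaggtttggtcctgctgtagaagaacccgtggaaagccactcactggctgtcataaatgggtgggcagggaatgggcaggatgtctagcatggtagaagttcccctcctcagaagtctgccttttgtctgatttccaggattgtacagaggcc
Both strands were searched for 6 motifs: the TATA box (TATAAA), C/EBP (TTNNGNAA), AP-1 (TGANTCA), the hypoxia response element core (ACGTG), the TCF/LEF core (CTTTGA) and STAT (TTCNNNGAA). The S100a8 window held TATAAA, 30 to 25 bases before the start, and a C/EBP match, 117 to 110 bases before it. The S100a9 window held 2 C/EBP matches and the S100a7a window 1 STAT match. No capitals overlap between motifs in these windows. Over 32851 promoter windows of the same length, 12.4% held TATAAA, 36.8% a C/EBP match and 7.02% a STAT match, so the C/EBP letters in particular are common.

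Some arrays stood apart. Day 7 replicate 2 correlated with the other day 7 arrays at a Pearson r of 0.973 to 0.980 over the tested genes, against 0.989 to 0.994 among those 3, and it had the most enterocyte signal: the mean of 11 absorptive enterocyte markers was 11.04 there and 8.97 to 9.41 on the other day 7 arrays. Xist, the transcript that silences one X chromosome in female cells, was at background on day 20 replicates 1 (6.68) and 4 (6.74) and at 9.39 to 10.41 on the other 6 arrays. Since no day 7 array lacked Xist signal, this feature is partly confounded with time, and for some genes values on the 6 arrays with Xist signal alone are also given.

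None of the 9 tested members passed the test between the days, against 4.85% of the 12466 genes tested over the whole array, of which 2.51% were higher and 2.33% lower at day 20 (limma, Benjamini-Hochberg adjusted p under 0.05). At an unadjusted limma p under 0.05 there were 4 of the 9 (S100a8, S100a9, S100a10 and S100a13, all with higher means at day 20), against 20.4% of all tested genes. The median log2 difference, day 20 minus day 7, was 0.22 over the 9 tested members and 0.005 over all tested genes. It was above 0 for 8 of the 9 and for 51.7% of all tested genes. S100a8 entered the test only through its day 20 arrays and S100a9 mainly through them, so these counts are descriptions and carry no test. All values below are normalized log2 intensities, in which the background limit was 6.796; because intensities were not background-subtracted, differences of dim genes are compressed.

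S100a8 was at 6.68, 6.75, 6.64 and 6.71 on day 7 replicates 1 to 4, and at 7.28, 8.56, 7.41 and 7.53 on day 20 replicates 1 to 4. No day 7 array exceeded the background limit and every day 20 array did, a pattern that 0.233% of tested genes showed. The groups did not overlap, which held for 13.1% of tested genes and for no other member. Day 7 averaged 6.70 ± 0.05 and day 20 averaged 7.70 ± 0.59 (SD, n = 4 per day). With the day 7 arrays set to the limit, the point estimate of the fold was at least 1.86. This is no bound on sampling error: the 95% confidence interval of the fold without that setting started at 1.34. The fitted log2 difference was 1 (SE 0.25, 95% confidence interval 0.42 to 1.58, limma adjusted p = 0.066), short of the threshold. Since S100a8 entered the test only through its day 20 arrays, its p-values here and under other settings are descriptions only.

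Day 20 replicate 2 had the highest S100a8 value by a wide margin and most of the day 20 spread. Without that array the log2 difference was smaller, 0.71, and passed (limma adjusted p = 0.00452). S100a8 also passed, at 2.71, with the background mode subtracted (limma adjusted p = 0.00195), and at 1.29 with Xist status as a term in the fit (limma adjusted p = 0.043). On the 6 arrays with Xist signal alone the difference was again 1.29 and did not pass (limma adjusted p = 0.074).

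**Figure D1:**
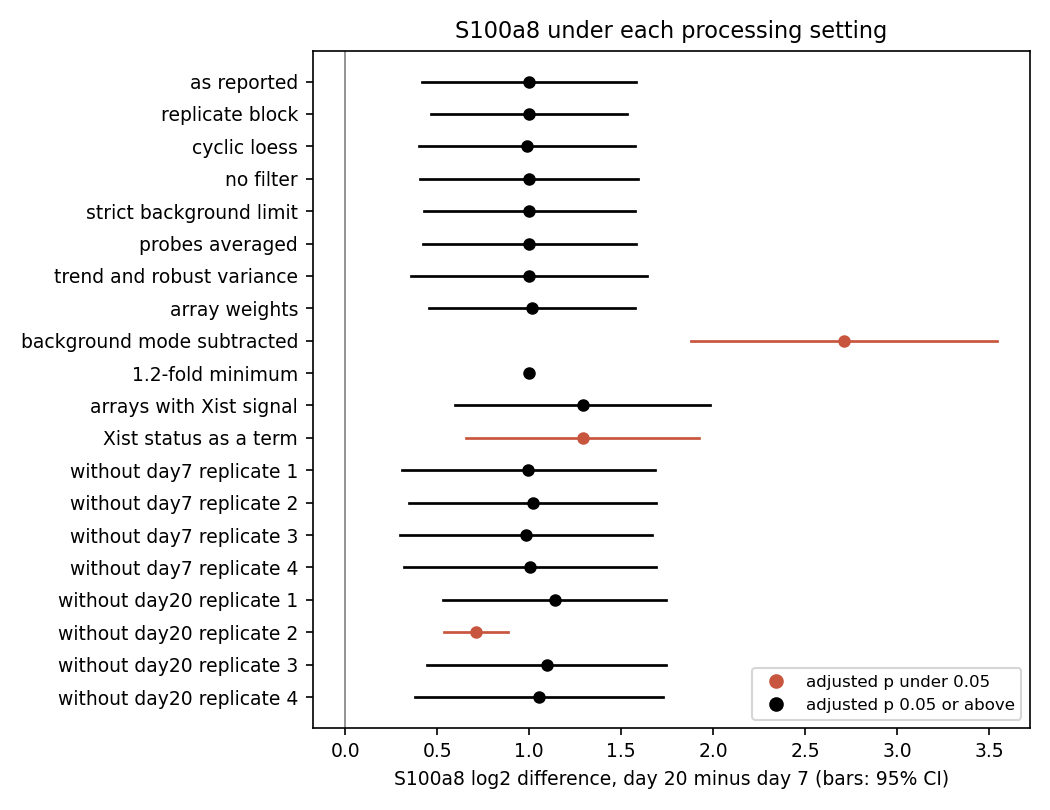
Log2 difference of S100a8 between day 20 and day 7 (x axis) as reported and under 19 other processing settings (y axis); points are fitted differences, bars 95% confidence intervals (none is available for the 1.2-fold minimum), and red marks an adjusted p under 0.05. All 20 estimates lie above 0, between 0.71 and 2.71, and 3 of the 19 other settings pass the threshold. S100a8 entered the test only through its day 20 arrays, so these calls are descriptions only.

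S100a9, which pairs with S100a8 in calprotectin, stayed close to background. It was at 6.70, 6.68, 6.83 and 6.76 at day 7 and at 6.83, 6.85, 7.02 and 7.01 at day 20. Its lowest day 20 value equalled its highest day 7 value, so the groups touched, with 1 day 7 array and all 4 day 20 arrays above the limit. The log2 difference was 0.18 (95% confidence interval 0.03 to 0.34, limma adjusted p = 0.17), and 0.79 with the background mode subtracted, again without passing (adjusted p = 0.064). The array with the most S100a8 signal, day 20 replicate 2, was not among the 2 highest for S100a9.

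S100a7a, a relative of the human psoriasin genes and the chromosomal neighbour of S100a8, is not among the 10 listed. It was at 7.11, 6.90, 7.04 and 7.22 at day 7 and at 7.30, 8.56, 7.30 and 8.20 at day 20. The groups did not overlap, but day 20 replicates 2 and 4 stood well above replicates 1 and 3. The log2 difference of 0.77 (95% confidence interval 0.13 to 1.42) missed the threshold (limma adjusted p = 0.17). It also missed it in each of 19 other settings, with values between 0.53 and 1.53 and the upper value from background subtraction.

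Calprotectin's known receptors were measured beside it. Tlr4, the lipopolysaccharide receptor, was at 6.77 to 6.87 at day 7 and 7.11 to 7.32 at day 20, near background on both days. It rose by 0.35 (SE 0.06, limma adjusted p = 0.0187), but did not pass on the 6 arrays with Xist signal (adjusted p = 0.072), without day 7 replicate 1 (0.061) or 3 (0.053), with Xist status as a term (0.070) or with a 1.2-fold minimum. With the background mode subtracted its difference was 1.14. Ager, the receptor for advanced glycation end products, averaged 6.93 ± 0.12 at day 7 against 6.97 ± 0.10 at day 20 (SD, n = 4 per day, limma adjusted p = 0.81).

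S100a8 and S100a9 are also abundant neutrophil genes, so markers of myeloid cells were read on the same arrays. Of 17 markers with a probe, 6 were at background on all 8 arrays: Ptprc, the pan-leukocyte surface gene, Itgam, Cxcr2, Retnlg, Lyz2 and Fcer1g. The list mean was 6.90 to 6.93 on the day 7 arrays and 7.01 to 7.09 on the day 20 arrays. Of the 7 members tested, 1 was higher and none lower, against 2.51% and 2.33% of all tested genes. This was the lactoferrin gene Ltf, also made by epithelia, which rose by 1.36 (limma adjusted p = 0.0306). Its call was lost without day 7 replicate 1 (0.082), 2 (0.056), 3 (0.076) or 4 (0.068), on dropping day 20 replicate 4 (0.076), and with a 1.2-fold minimum (0.10). Cd14, the co-receptor of Tlr4, was at 8.54 to 8.96 at day 7 and 9.13 to 9.91 at day 20 (difference 0.74, limma adjusted p = 0.060), and passed in 3 of 19 other settings. Over the other 15 markers, a split chosen after the values were seen, the mean was 6.73 to 6.80 at day 7 and 6.76 to 6.79 at day 20, and the highest single value was 7.09. In bulk RNA of this kind, fewer cells of a type and less RNA per cell cannot be told apart.

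**Figure D2:**
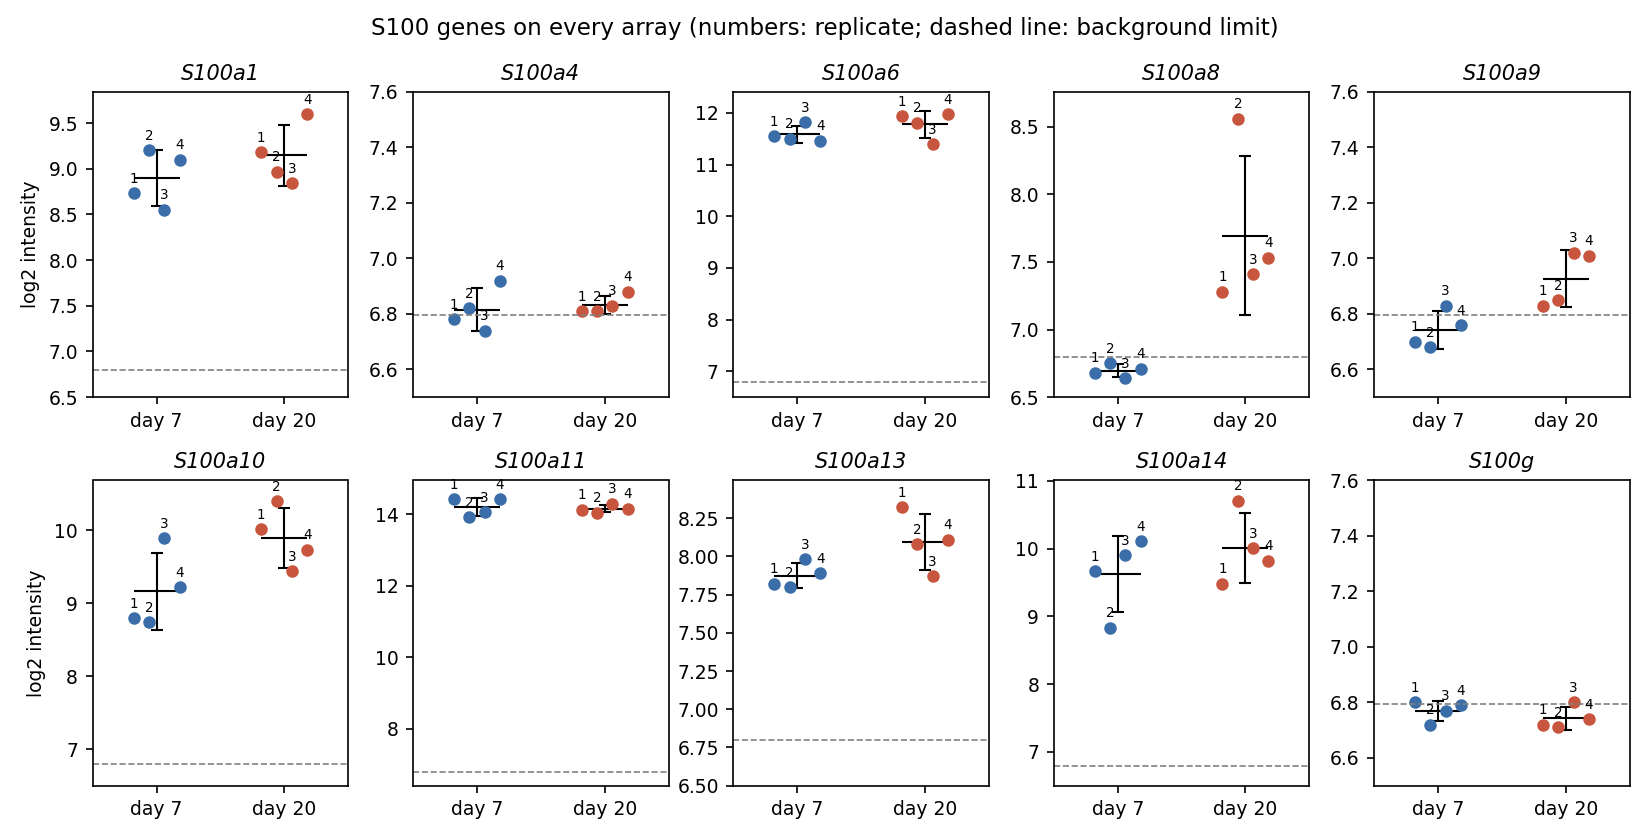
Normalized log2 intensity (y axis, scaled per gene) of the 10 S100 members on the 4 day 7 arrays (blue) and 4 day 20 arrays (red), numbered by replicate; black marks are means with SD, and the dashed line is the background limit of 6.796. S100a8 alone separates the days, whereas S100a4, S100a9 and S100g lie near the limit and S100a1, S100a6, S100a10, S100a11, S100a13 and S100a14 lie above it on every array.

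S100a10 had the largest difference among the annexin-binding members. Its protein, p11, pairs with annexin A2 at the plasma membrane and has lost the ability to bind calcium. It was at 8.79, 8.74, 9.89 and 9.22 at day 7 and at 10.01, 10.40, 9.44 and 9.73 at day 20. Day 7 replicate 3 lay above day 20 replicates 3 and 4, so the groups overlapped. The log2 difference was 0.73 (SE 0.29, 95% confidence interval 0.07 to 1.40) and did not pass (limma adjusted p = 0.20). Without day 7 replicate 3 it was 0.98, still short of the threshold (adjusted p = 0.078).

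S100a11, a partner of annexin A1, was bright on every array. It was at 14.41, 13.91, 14.05 and 14.42 at day 7 and at 14.12, 14.04, 14.29 and 14.15 at day 20. The day 20 values all fell inside the day 7 range, and the 95% confidence interval of the log2 difference ran from -0.34 to 0.24 (limma adjusted p = 0.88). S100a6, calcyclin, which binds annexins and the protein Cacybp, was at 11.55, 11.50, 11.82 and 11.46 at day 7 and at 11.93, 11.81, 11.39 and 11.97 at day 20. Its log2 difference was 0.19 (95% confidence interval -0.13 to 0.51, limma adjusted p = 0.50), and day 20 replicate 3 was the lowest of all 8 arrays.

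Of the 12 annexins tested, 1 was higher and 1 lower, against 2.51% and 2.33% of all tested genes. At an unadjusted limma p under 0.05 there were 8, against 20.4% of all tested genes. Anxa2, the partner of S100a10, was at 14.01, 13.84, 14.23 and 14.21 at day 7 and at 14.50, 14.45, 14.42 and 14.52 at day 20, with no overlap. It rose by 0.40 (SE 0.09, limma adjusted p = 0.0463), a call that 16 of 19 other settings did not keep, among them each of the 8 fits without 1 array (adjusted p from 0.051 to 0.12). The arrays with Xist signal gave an adjusted p of 0.20, and averaging its probes reduced the difference to 0.12. Anxa6, a calcium-dependent membrane organizer that several S100 proteins bind, was at 10.07, 10.06, 9.86 and 9.53 at day 7 and at 7.99, 9.14, 8.99 and 8.31 at day 20. It fell by 1.27 (SE 0.26, limma adjusted p = 0.0321).

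Day 20 replicates 1 and 4 were the lowest for Anxa6, and these are the arrays on which Xist was at background. On the 6 arrays with Xist signal the Anxa6 difference was -0.81 (limma adjusted p = 0.060). With its probes averaged it was -0.76, which passed. Its adjusted p rose above the threshold on dropping day 7 replicate 1 (0.091), 2 (0.062) or 3 (0.076) or day 20 replicate 1 (0.0504) or 4 (0.081), and with a 1.2-fold minimum (0.12). Anxa11, a partner of S100a6, was at 11.73 to 12.02 at day 7 and 11.22 to 11.65 at day 20, a difference of -0.38 that did not pass (limma adjusted p = 0.097). Anxa1 differed by 0.15 (95% confidence interval -0.16 to 0.45, adjusted p = 0.60). The Anxa1 difference was -0.05 when arrays without Xist signal were dropped.

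Of 15 tested receptors and binding partners outside the annexins, 1 was higher (Tlr4) and 1 lower, against 2.51% and 2.33% of tested genes. The lower one was Fgf1, a growth factor without a signal peptide whose release from cells involves S100a13. Fgf1 was at 8.24, 7.80, 8.29 and 8.12 at day 7 and at 7.11, 6.94, 7.11 and 6.79 at day 20. It fell by 1.13 (SE 0.12, limma adjusted p = 0.0024) and passed in all 19 other settings. The difference ran from -0.77 with its probes averaged to -2.32 after background subtraction, with 1 day 20 array below the limit. Ahnak, a giant scaffold protein bound by the S100a10 and annexin A2 complex, differed by 0.46 without passing (adjusted p = 0.15), and passed with its probes averaged (0.0182) and without day 7 replicate 1 (0.0481). Cacybp differed by 0.02 (adjusted p = 0.92) and Myh9, the nonmuscle myosin heavy chain that S100a4 binds, by 0.15 (adjusted p = 0.48). Across the 19 settings the difference of Ager, Cacybp and Myh9 took either sign and none passed.

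**Figure D3:**
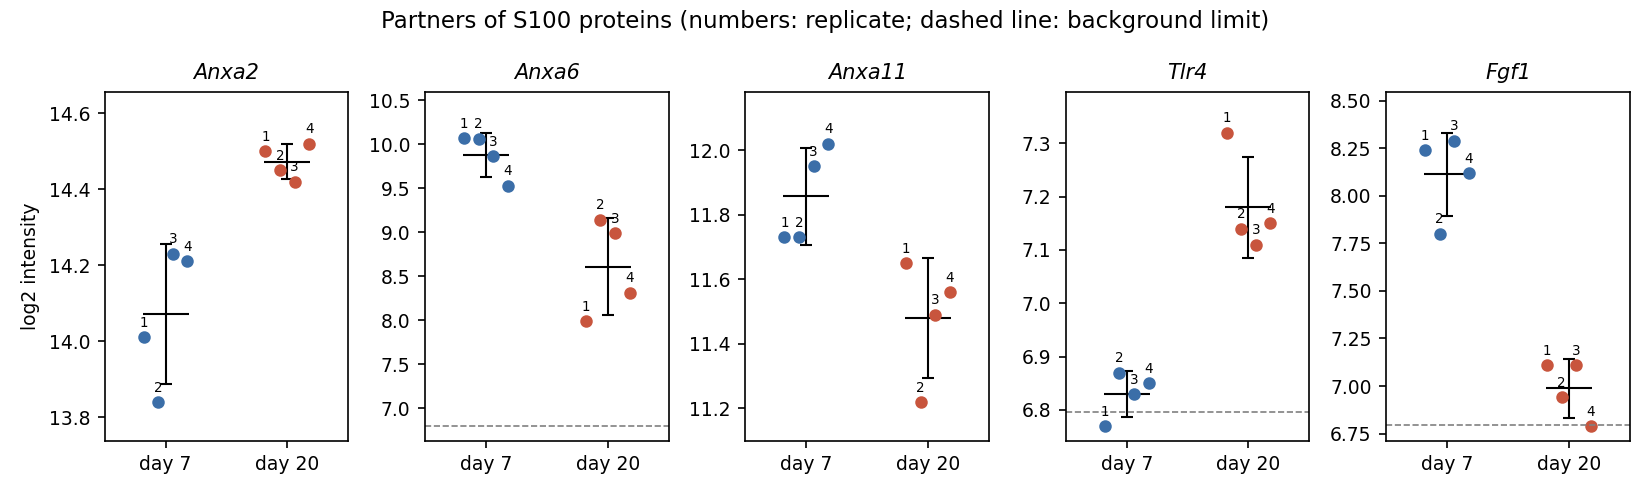
Normalized log2 intensity (y axis, scaled per gene and not starting at 0) of 5 binding partners of S100 proteins on the 4 day 7 arrays (blue) and 4 day 20 arrays (red), numbered by replicate; black marks are means with SD, and a dashed line shows the background limit of 6.796 where it is in range. Anxa2 and Tlr4 are higher and Anxa6, Anxa11 and Fgf1 lower on all 4 day 20 arrays, and of these Anxa11 did not pass the test.

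S100a13, which takes part in the release of Fgf1, was at 7.82, 7.80, 7.98 and 7.89 at day 7 and at 8.32, 8.08, 7.87 and 8.11 at day 20. Only day 20 replicate 3 fell inside the day 7 range. The log2 difference was 0.22 (SE 0.10, 95% confidence interval 0.003 to 0.44, limma adjusted p = 0.24). S100a14, a member found mainly in epithelia, was at 9.67, 8.83, 9.90 and 10.11 at day 7 and at 9.48, 10.71, 10.01 and 9.82 at day 20. The groups overlapped widely and the difference was 0.38 (95% confidence interval -0.37 to 1.13, adjusted p = 0.58). Its dimmer second probe differed by 0.28.

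S100a1, best known as a regulator of calcium cycling in muscle, was at 8.73, 9.20, 8.55 and 9.10 at day 7 and at 9.18, 8.97, 8.84 and 9.60 at day 20. Its difference of 0.25 (95% confidence interval -0.20 to 0.70) did not pass (limma adjusted p = 0.53). S100a4, a gene of fibroblasts and metastatic cells, was barely distinguishable from background: 6.78, 6.82, 6.74 and 6.92 at day 7 and 6.81, 6.81, 6.83 and 6.88 at day 20 (adjusted p = 0.90). Its log2 difference was 0.02 (95% confidence interval -0.11 to 0.15), and a fall could not be seen from this level. Among 11 fibroblast and stromal markers, Col1a1, Thy1 and Postn were at background on all arrays, and the list mean was 7.29 to 7.50 at day 7 and 6.89 to 7.25 at day 20. None of its 4 tested members passed. At an unadjusted limma p under 0.05 there were 2, Vim and Acta2, against 20.4% of all tested genes. Neither of these 2 overlapped between the days, which held for 13.1% of all tested genes. Col1a2 and Pdgfra, also tested, differed by -0.075 and 0.03. The intermediate filament gene Vim was at 11.65, 11.99, 12.13 and 11.41 at day 7 and at 8.74, 11.05, 11.31 and 7.95 at day 20, a difference of -2.03 (limma adjusted p = 0.16). It was lowest on the day 20 arrays without Xist signal, and the difference was -0.61 on the other 6 arrays. The smooth muscle actin gene Acta2 was at 9.98, 8.99, 8.89 and 7.94 at day 7 and at 7.07, 7.90, 7.17 and 7.03 at day 20. Its difference of -1.66 missed the threshold (limma adjusted p = 0.054). Of 19 other settings it passed only with the strict background limit (0.0465), the background mode subtracted (0.0142) and without day 7 replicate 4 (0.0222). Averaging the Acta2 probes shrank the difference to -0.62 (limma adjusted p = 0.065). Leaving out the arrays that lacked Xist signal gave -1.415 (limma adjusted p = 0.24).

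S100g gave no usable signal. It was at 6.80, 6.72, 6.77 and 6.79 at day 7 and at 6.72, 6.71, 6.80 and 6.74 at day 20, above the limit on 1 array of each day, and was not tested. The day 7 arrays carried some bright enterocyte genes. The mean of the absorptive enterocyte markers, 8.97 to 11.04 at day 7, was 6.97 to 7.19 at day 20. Of the 9 tested, 6 were lower, against 2.33% of all tested genes, or 4 on the arrays with Xist signal. One of the 9, Apoa4, was above the limit at day 7 alone and passed the filter through those arrays, so the count of lower genes is a description only. Fabp1 and Fabp2 of the same list, like S100g, gave no usable signal and were below the limit on all 8 arrays. Whether this S100g probe can report the transcript was not tested. The other genes of calcium uptake across enterocytes gave no call among 10 tested (limma). At an unadjusted limma p under 0.05 there were 2, against 20.4% of all tested genes. Trpv6, the apical calcium channel, was near background at 6.81 ± 0.06 and 6.91 ± 0.17 (SD, n = 4 each, day 7 and day 20; adjusted p = 0.56), and its difference was 0.11, or -0.03 on the arrays with Xist signal. Vdr, the vitamin D receptor, was at 9.78 ± 0.53 and 9.87 ± 0.80 (adjusted p = 0.94), with its lowest value, 8.69, on day 20 replicate 2. Its difference ran from -0.39, on the arrays with Xist signal, to 0.48, without day 20 replicate 2. The calcium pump gene Atp2b1 differed by -0.13 (95% confidence interval -0.50 to 0.24, adjusted p = 0.72), and by -0.01 without day 7 replicate 2 and -0.27 without day 7 replicate 3.

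**Figure D4:**
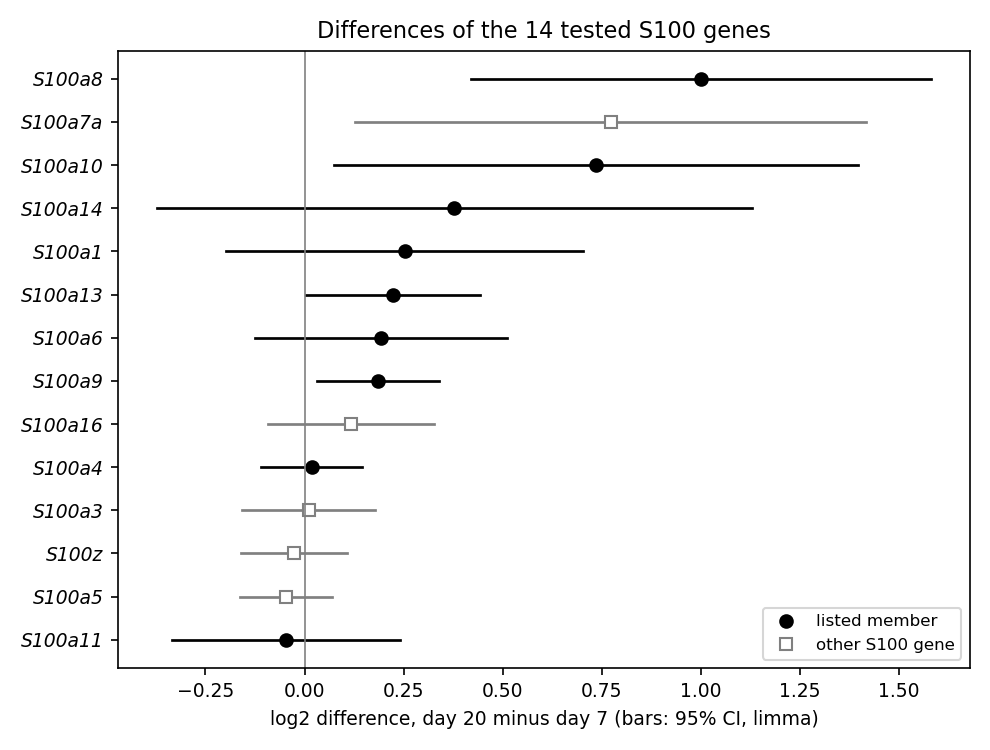
Log2 difference, day 20 minus day 7 (x axis), of the 14 tested S100 genes (y axis, ordered by difference); points are limma estimates and bars their 95% confidence intervals, unadjusted for the number of genes, with the listed members in black and other S100 genes in grey. S100a8, S100a7a and S100a10 have the 3 largest differences, 1, 0.77 and 0.73, and none of the 14 passes after adjustment.

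The remaining S100 genes with a probe added little. S100a16 was above the limit on every array and averaged 7.76 ± 0.14 at day 7 against 7.87 ± 0.13 at day 20 (SD, n = 4 per day; limma adjusted p = 0.53). S100a3, S100a5 and S100z lay around the limit with differences of 0.01, -0.05 and -0.03, and S100b, a glial gene, was above it on 1 array and was not tested. None of the 5 tested passed (1, S100a7a, at an unadjusted p under 0.05). As a comparison, 1 of 17 tested genes of other EF-hand proteins was higher and none lower, against 2.51% and 2.33% of all tested genes. That gene was Cib1, an integrin-binding protein, which rose by 0.43 (SE 0.08, adjusted p = 0.0288) and did not pass in 11 of 19 other settings (adjusted p from 0.0501 to 0.78 in those), among them 6 of the 8 fits without 1 array and the arrays with Xist signal (0.14).

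Day 7 replicate 2 was the lowest of all 8 arrays for 5 of the 10 members, and for 22.8% of all tested genes. It lay below the next array by 0.02 for S100a9, 0.05 for S100a10, 0.02 for S100a13, 0.13 for S100a11 and 0.65 for S100a14, so that the first 3 gaps were slight. The part of its enterocyte signal in these S100 values was not tested. Without it the S100a14 difference fell to 0.11. At day 20, replicates 1 and 4, where Xist was at background, were the highest of their day for S100a1, S100a6 and S100a13. On the 6 arrays with Xist signal the differences of these genes were 0.01, 0.02 and 0.10, in place of 0.25, 0.19 and 0.22, and that of S100a14 was 0.73 in place of 0.38.

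Genes outside the family with the pattern closest to S100a8 were sought for description, although no member passed the threshold that the naming rule required; S100a8 and S100a10 were chosen for this after their values were seen. Over the 8 arrays and 5458 tested genes with a range above 0.5, Nudt8 (Pearson r = 0.988), Ltf (0.985) and Ankrd37 (0.976) were closest to S100a8. All 3 peaked on day 20 replicate 2. Ankrd37, an ankyrin repeat gene known to be induced under low oxygen, was at 7.41 to 7.51 at day 7 and at 8.53, 10.60, 9.29 and 9.37 on day 20 replicates 1 to 4. It rose by 1.99 (limma adjusted p = 0.0221; 0.056 to 0.065 without day 7 replicate 1, 3 or 4 or day 20 replicate 4, and 0.058 with a 1.2-fold minimum). For S100a10 the closest were Tpgs2 (r = 0.979), the ferritin light chain gene Ftl1 (0.978) and Mrpl52 (0.973), none of which passed. Each r is the highest of many and describes these arrays only.

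Markers of other lineages were also read, although list means of bulk RNA cannot show which cell types were present. Of 8 epithelial markers, all tested, none passed, and 1 had an unadjusted limma p under 0.05, against 20.4% of all tested genes. All 8 differences were above 0 with a median of 0.20, against 51.7% above 0 and a median of 0.005 over all tested genes. The median of the tested S100 members was 0.22, and whether the 2 shifts are related was not tested. List means were 10.80 to 11.03 at day 7 and 10.99 to 11.25 at day 20, with Epcam near the limit throughout, at 6.75 to 7.00. Goblet, enteroendocrine and stem cell markers were lower in 4 of 5, 7 of 7 and 3 of 6 tested members. Over all tested genes 2.33% were lower. Of the 7 enteroendocrine genes, 4 (Chga, Cck, Sst and Tac1) exceeded the limit at day 7 alone and passed the filter through those arrays, so that count is a description only. On the arrays with Xist signal these counts were 2, 7 and 1, and the stem cell count was also 1 on dropping day 7 replicate 1 or 4 or day 20 replicate 4. Squamous keratinocyte markers, read because S100a7a and S100a8 are also skin genes, had 1 higher member of 4 tested, against 2.51% of all tested genes. This was Ivl, which entered the test only through its day 20 arrays, so its p-values here are descriptions only. Ivl, encoding the cornified envelope protein involucrin, was at background on all day 7 arrays and at 7.00 to 7.24 at day 20. Its difference was 0.46 (limma adjusted p = 0.00723, and 0.27 with a 1.2-fold minimum). With its probes averaged the difference was 0.26 (adjusted p = 0.038). Lor, encoding loricrin of the same envelope, was at 8.60 to 9.72 at day 7 and 9.98 to 12.19 at day 20, without passing (adjusted p = 0.067; difference 1.87, or 1.06 on arrays with Xist signal), but passed on dropping day 20 replicate 3 and with background subtraction (both 0.0305). Krt10 and Krt14, also tested, differed by -0.19 and -0.01 without passing (limma adjusted p = 0.36 and 0.97). Krt5 and Trp63 stayed near background, at 6.58 to 6.92. Krt1 and Dsg3 were at background on all arrays, and the list mean was 7.21 to 7.38 at day 7 and 7.38 to 7.73 at day 20. Of 2 glial markers tested none passed (0 at an unadjusted p under 0.05), with list means of 7.50 to 7.67 at day 7 and 7.53 to 7.67 at day 20. Those means rested on Mbp, at 9.68 to 10.43. Gfap and Foxd3 were at 6.69 to 6.91, and Sox10 was below the limit on all arrays.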

How the data were processed

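Per the labels' protocols, biotinylated cRNA was made from the total RNA of 8 organoid samples for Illumina arrays. The deposited table holds log2 intensities whose median (6.81) and maximum (15.43) are equal on all arrays, so they were normalized between arrays by the authors. Their method, software and any background correction: not given in the sources used here. A deposited non-normalized table was not used: its 16 per-sample columns match no sample label. Precision is limited by the number of arrays and by signal over background.

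Probe names came from the platform annotation (34885 of 45281 probes had 1 symbol, 18 several and 10378 were not listed). Each gene took its probe with the highest mean. The background limit of 6.796 is the upper 0.05 point of a normal curve placed at the mode of the values, 6.7, with an SD of 0.0584 taken from the values at or below that mode. The 12466 genes above it on at least 4 of 8 arrays entered a linear model in limma 3.58.1 (R 4.3.3, no covariates, two-sided, Benjamini-Hochberg over all tested genes, threshold 0.05), after a test on simulated data. Left-out arrays kept the same gene set. Figures used matplotlib 3.10.9 in Python 3.11.15.

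The members, lists and alternatives were chosen with earlier results of these data known. Named were all members, other S100 genes, 12 preset partners, at most 4 passing genes of a list, and genes of like pattern. Passing goblet and stem cell genes, and passing enterocyte genes other than Apoa4, were counted but not named. Cd14, Krt1, Dsg3 and other marker genes given by level were chosen after their values were seen.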

Additional observations from a re-analysis of the deposited data

Results flagged for a closer look

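S100b on day 7 replicate 1 was at 6.82, against 6.67 to 6.69 on the other day 7 arrays, a gap of 0.867 of the day's range. It was the 1 such value among 32 sets of 4 arrays examined (16 S100 genes on 2 days), of which chance flags about 1 in 20, and it lies within 0.03 of the background limit.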

How the results depend on the processing

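Of 12466 genes, 604 changed as reported. The count was 401 with a replicate block, 162 with a 1.2-fold minimum and 301 to 579 with each array left out in turn (301 and 349 on dropping day 7 replicates 1 and 3, and 373 and 353 on dropping day 20 replicates 2 and 4). It was 713 with the background mode subtracted and an offset of 16, and 413 on the 6 arrays with Xist signal. The number of members that passed was 0 as reported, 1 with the background mode subtracted, 1 with Xist status as a term, and 0 to 1 with each array left out. That member was S100a8 each time, for which the calls are descriptions only. The number that passed was 0 with a replicate block, cyclic loess, no filter, a strict filter and averaged probes. It was also 0 with array weights, robust variance with an intensity trend, a 1.2-fold minimum and the 6 arrays with Xist signal. With each array left out, the S100a11 difference ran from -0.14 to 0.0267 and that of S100a4 from -0.0075 to 0.0525, so their sign was not settled. S100g could be tested only with no filter, at -0.03 (limma adjusted p = 0.81). Same-numbered arrays of the 2 days had correlated deviations of 0.119, 0.0503, -0.00957 and 0.142, and 2 of the 4 day 7 arrays correlated best with their own number, so the numbers do not show a pairing. The replicate block changed no call among the members. Outside the family it gave adjusted p-values of 0.085 for Anxa2, 0.078 for Tlr4, 0.098 for Cib1, 0.056 for Ltf and 0.037 for Cd14. S100a4, S100a9 and S100g lay so close to the background limit at day 7 that a fall could not be seen.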
